A study of Mus musculus with 3 samples.

Results

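Dividing cells were chosen by measured values, in single-cell RNA libraries of the mouse epididymis (the long duct that sperm pass through after leaving the testis), namely by the messenger RNAs that cells carry around mitosis. A cell was a member when it had at least 200 detected genes, at least 4 of 11 genes of late cell cycle detected (Cenpf, Hmmr, Cdc20, Cenpa, Tpx2, Prc1, Ccnb2, Ube2c, Top2a, Birc5 and Mki67), and a sum of these 11 of at least 5 UMIs (unique molecular identifiers, each counting 1 captured RNA molecule) per 10000 UMIs of the cell. The rule found 592 dividing cells among 14555 cells. These were 300 of 4939 cells of the caput, the head of the duct next to the testis, 230 of 4831 cells of the corpus, its body, and 62 of 4785 cells of the cauda, its tail.

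The tissue came from untreated wild-type C57BL/6 mice aged 56 days, and each region gave 1 library on the Singleron GEXSCOPE system. How many animals were used, and whether their tissue was pooled, is not stated in the labels. With 1 library per region no replicate check and no test was possible, so regions cannot be told apart from libraries. Intervals in parentheses are exact 95% intervals (Clopper-Pearson for shares, Poisson for UMI counts), which cover counting error only.

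Before mitosis a cell copies its DNA in S phase, and in G2 it builds up cyclin B and the spindle and centromere proteins that divide the chromosomes. Many of these late genes are held silent in resting cells by the DREAM complex, which binds promoters at the cell cycle homology region, and are switched on in cycling cells by B-Myb and FoxM1, with NF-Y bound at CCAAT boxes nearby. The epithelium of the adult epididymis is known as a tissue with few divisions, in which principal cells secrete the proteins that coat sperm, clear cells acidify the fluid and basal cells lie under both.

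Of the 11 genes that define the cells, 10 had a promoter in the RefSeq table for GRCm38.p6, each taken as 250 bases before to 50 bases after the start site. The homology region was searched as TTTGAA and, in its other form, as TTCGAA. Either form was found on either strand in promoters of 9 of the 10 genes, and the same 9 held CCAAT. Birc5, the inhibitor of apoptosis that rides with the chromosomal passenger complex, held neither in this window. Of all 27025 genes in the table, 21.7% had a promoter with either form, 41.1% one with CCAAT and 8.61% one with both. Of the 32851 promoters, 19.2% held either form, 37.4% held CCAAT and 7.52% held both. Motifs of E2F, which acts on many S phase genes, were searched as TTTCCCGC, as TTTGGCGC and as TTCCCGCC, some of which overlap. They were found in 0 of the 10 genes, in 3.69% of all genes and in 3.21% of all promoters. A match describes the letters in the window and is not a measured binding site.

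The 4 promoters printed here belong to the rule genes seen in all or in none of the meiotic cells described further on. Ccnb2, cyclin B2, a partner of the mitotic kinase Cdk1, and Cenpf, a protein of the outer kinetochore, had UMIs in all of those cells. Both were also seen in most of the other 584 members, in 433 and 461 of them. Mki67, the chromosome-coating protein used as a stain for proliferation, and Cenpa, the histone H3 variant of the centromere, had no UMI in the meiotic cells. Capitals mark either form of the homology region and CCAAT, on either strand, and each sequence runs 5′ to 3′ along its gene. The windows are chr9:70421505-70421804 (minus strand), chr1:189688037-189688336 (minus strand), chr7:135716330-135716629 (minus strand) and chr5:30666636-30666935 (plus strand).
Ccnb2: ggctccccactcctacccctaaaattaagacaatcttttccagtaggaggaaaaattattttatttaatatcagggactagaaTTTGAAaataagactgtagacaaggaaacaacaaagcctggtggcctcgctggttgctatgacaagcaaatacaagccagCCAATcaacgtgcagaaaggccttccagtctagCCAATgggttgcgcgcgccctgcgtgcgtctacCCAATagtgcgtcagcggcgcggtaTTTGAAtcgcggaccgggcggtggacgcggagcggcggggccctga
Cenpf: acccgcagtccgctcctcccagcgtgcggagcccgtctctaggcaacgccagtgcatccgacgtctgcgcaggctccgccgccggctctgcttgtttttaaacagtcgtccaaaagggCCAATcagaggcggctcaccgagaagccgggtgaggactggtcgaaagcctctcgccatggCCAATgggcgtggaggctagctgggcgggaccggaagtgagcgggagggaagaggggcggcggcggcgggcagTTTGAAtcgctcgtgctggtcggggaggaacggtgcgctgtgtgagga
Mki67: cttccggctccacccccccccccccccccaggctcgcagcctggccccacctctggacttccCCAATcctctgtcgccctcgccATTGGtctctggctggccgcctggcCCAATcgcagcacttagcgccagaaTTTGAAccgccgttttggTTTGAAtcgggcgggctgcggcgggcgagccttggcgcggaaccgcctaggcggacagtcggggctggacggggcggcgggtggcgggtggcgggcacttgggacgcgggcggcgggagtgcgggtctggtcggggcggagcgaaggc
Cenpa: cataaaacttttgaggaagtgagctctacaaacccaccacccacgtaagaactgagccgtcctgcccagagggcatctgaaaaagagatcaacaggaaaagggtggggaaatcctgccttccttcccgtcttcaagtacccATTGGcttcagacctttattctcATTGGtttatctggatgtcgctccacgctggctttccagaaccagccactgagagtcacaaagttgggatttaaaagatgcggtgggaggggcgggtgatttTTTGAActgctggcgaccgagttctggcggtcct
A TTTGAA began 5 bases into the transcript of Ccnb2, 3 into that of Cenpf and 17 into that of Cenpa, while in Mki67 the nearest one to the start site lay before it.

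Dividing cells made up 6.07% (5.42 to 6.78) of caput cells, 4.76% (4.18 to 5.40) of corpus cells and 1.30% (0.995 to 1.66) of cauda cells. The cauda share was the lowest, and the intervals of caput and corpus were adjacent without overlap. Without cells over 20% mitochondrial UMIs, 6.27% (5.59 to 6.99) of caput and 6.11% (5.33 to 6.96) of corpus cells passed, and those intervals overlapped. Most members were well past the rule: 220, 143 and 32 of them had at least 7 of the 11 genes, and 105, 41 and 7 had all 11. Just inside the rule, 29 caput, 32 corpus and 13 cauda members had exactly 4 of the genes, with a median sum of 12, 12.1 and 20.1 UMIs per 10000. Just outside it, 98, 82 and 27 cells had 3 of the genes, with a median sum of 5.69, 10.9 and 12.1. Another 19, 6 and 3 cells had 4 or more genes but a sum under 5 per 10000.

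The dividing cells carried more RNA than the rest of their libraries. Their median was 10569 UMIs in caput, against 4895 in other cells, 7676 in corpus, against 2567, and 6331 in cauda, against 2147. The part of depth in the counts was measured by thinning every cell to 1000 UMIs, which left out 20 caput, 59 corpus and 1088 cauda cells that were shallower. At that depth 2.09% (1.71 to 2.53) of caput, 1.42% (1.11 to 1.80) of corpus and 0.487% (0.289 to 0.768) of cauda cells passed, in the same order of regions as before thinning.

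Free RNA in the wells was gauged with cells of the erythroid panel, which have no nucleus in the adult and should lack these genes. Any UMI of the 11 genes was seen in 26.8%, 27.9% and 10.9% of erythroid-panel cells of caput, corpus and cauda, at medians of 2792, 2211 and 1082 UMIs, against 30.1%, 26.7% and 14% of the other cells of the principal panels, at medians of 6906.5, 2394 and 1410.5 UMIs. A single UMI of these genes was therefore not read as a sign of division. The full rule was met by 0 of 190 erythroid-panel cells in caput, 3 of 323 in corpus and 0 of 211 in cauda. Those 3 had a median of 1737 detected genes, against 424 in the other erythroid-panel cells of corpus. The panel call does not exclude red cells mixed with other cells, so the source of these UMIs was not tested. Between libraries, 23 cell barcodes were shared, and 3 dividing cells carried one of them.

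In caput, Mki67 was seen in 81.0% of dividing cells and 3.36% of other cells, in corpus in 82.6% and 2.93%, and in cauda in 83.9% and 2.94%. Top2a, the topoisomerase that untangles sister DNA, was seen in 69.7%, 70.4% and 85.5% of the dividing cells, and Cdc20, the activator of the anaphase-promoting complex, in 60.7%, 45.7% and 35.5%. Since these genes chose the cells, the values describe the members and support nothing. A separate set of 11 mitotic genes that the rule did not read (Cdk1, Ccnb1, Ccna2, Aurka, Aurkb, Plk1, Nusap1, Cdca8, Kif11, Cks2 and Pbk), put through the same thresholds, picked 218, 166 and 44 cells. Of these, 96.8%, 93.4% and 86.4% were members, and they held 70.3%, 67.4% and 61.3% of all members. Genes of this set are known to be expressed together with the rule genes and were read in the same cells. The overlap is therefore no independent sign of division.

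The lineage of each cell was set by 21 marker panels joined into 12 lineages: a cell took the panel with the largest share of its genes above their library mean, and at least 3 genes had to be above it. Caput and corpus divisions were mostly in cells of the principal panels, while cauda divisions were mostly in immune and fibroblast cells. The principal panels took 213 of 300 dividing cells in caput, 71.0% (65.5 to 76.1), 132 of 230 in corpus, 57.4% (50.7 to 63.9), and 10 of 62 in cauda, 16.1% (8.02 to 27.7). For scale, the same panels took 47.4%, 46.0% and 27.6% of all cells. Immune panels took 13, 24 and 23 dividing cells, which is 4.33%, 10.4% and 37.1% (25.2 to 50.3) of them, and the fibroblast panel took 5, 12 and 18, which is 1.67%, 5.22% and 29.0% (18.2 to 41.9).

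Every other lineage was a small part of the dividing cells. In caput there were 15 endothelial, 10 clear, 10 basal, 7 mural (smooth muscle or pericyte), 6 germ and 2 ciliated cells, in corpus 16 clear, 8 basal, 6 endothelial, 4 germ, 3 erythroid and 2 mural cells, and in cauda 2 clear, 2 endothelial and 2 mural cells. By clusters in place of panels, caput had 22 basal, 10 germ, 3 clear and 1 mural cells among the dividing ones, with 58 in a cluster without a name, and 3 of the 10 clear and 1 of the 7 mural cells kept their call. In corpus the clusters gave 5 basal, 4 endothelial, 1 erythroid and 0 mural cells, and in cauda 1 endothelial and 1 germ cell, so the small counts depend on the method. No lineage could be set by panels for 19, 23 and 5 of the dividing cells. A second lineage also had at least 50% of the genes of a panel over their library means in 14.3%, 10.9% and 8.06% of dividing cells, against 10.8%, 5.22% and 6.46% of other cells. Among dividing caput cells this held for 12 of 213 principal, 0 of 10 basal, 3 of 10 clear and 5 of 13 immune cells. It held for 7 of 15 endothelial, 4 of 5 fibroblast and 6 of 7 mural cells there, and in corpus for 2 of 2 mural and 3 of 4 germ cells. Many of these small counts thus rest on cells with a mixed profile. No doublet caller was run. Without cells of 2 lineages, 78.2% of the dividing cells of caput were principal cells.

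**Figure D1:**
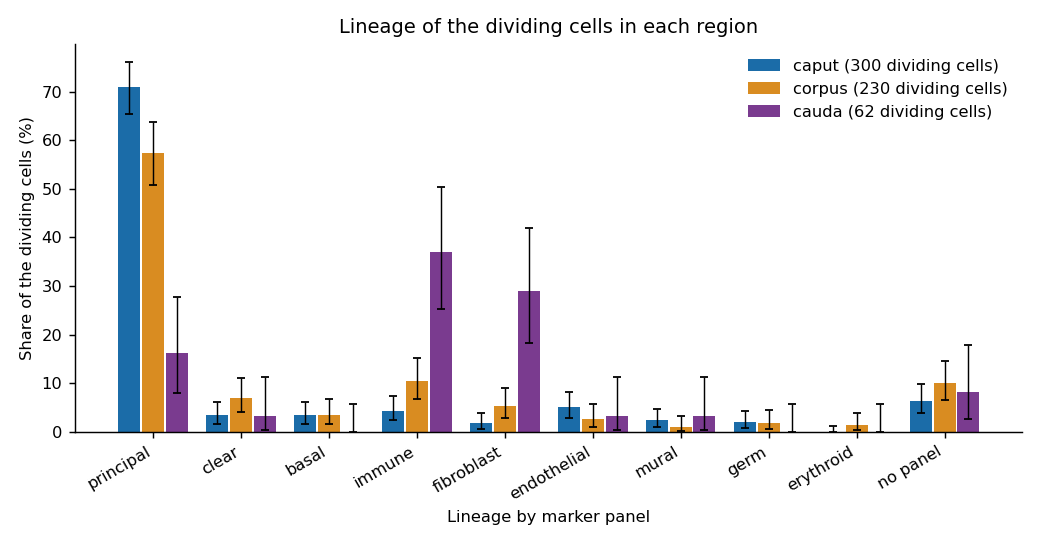
Share of the dividing cells (%) that fell to each lineage by marker panel, for 300 caput, 230 corpus and 62 cauda cells, with exact 95% binomial intervals. Principal cells lead in caput (71.0%) and corpus (57.4%), and immune cells lead in cauda (37.1%).

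Of the single genes usually used to tell these lineages apart, some could not do so here. Gpx5, the secreted glutathione peroxidase of caput principal cells, was seen in 300 of 300 dividing and 4638 of 4639 other caput cells, so its presence named no lineage there. In corpus it was seen in 5.22% of dividing and 3.89% of other cells, at 8.21 and 17.3 CPM (UMIs of the gene per 1000000 UMIs), so it did not mark the principal cells of that region. Dcn, the matrix proteoglycan of fibroblasts, was seen in 62 of 62 dividing and 95.3% of other cauda cells.

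The level of the same genes is given by lineage, although Gpx5, Dcn and Pecam1 belong to the panels that made the calls, so that a high level in their own lineage follows in part from the call. In caput Gpx5 was at 29092 CPM in dividing principal cells, 22255 CPM in clear, 16721 CPM in fibroblast, 11513 CPM in immune, 8823 CPM in mural, 5694 CPM in basal and 4661 CPM in endothelial ones. Dcn was at 14526 CPM in dividing cauda fibroblast cells and 2541 CPM in dividing cauda immune cells. Pecam1, an adhesion molecule of endothelium, was seen in 15 of 15 dividing endothelial cells of caput, in 4 of 7 dividing mural cells and in 11 of 213 dividing principal cells.

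Ptprc, the leukocyte phosphatase CD45, was seen in 34 of 62 dividing cells of cauda, 54.8% (41.7 to 67.5), and in 17.0% of other cauda cells, in 16.5% and 12.1% in corpus, and in 8.0% and 6.29% in caput. In cauda it was seen in 20 of 23 dividing immune cells and in all 5 dividing cells without a lineage. It was also seen in 6 of 18 dividing fibroblast cells there, against 7.59% of other fibroblast cells, so not all of these calls were free of an immune gene. Foxi1, the transcription factor of clear cells, was seen in 9 of 10 dividing clear cells of caput and 15 of 16 of corpus. Krt5, the keratin of basal cells, was seen in 9 of 10 dividing basal cells of caput and in 8 of 8 of corpus. Foxi1 and Krt5 also belong to the panels that made these calls, so these counts follow in part from the call. In cauda, where 0 of 56 basal cells passed the rule (an upper limit of 6.38%), Krt5 was seen in 2 of 62 dividing cells.

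Among cells of the principal panels, 9.11% (7.97 to 10.3) were dividing in caput, 5.94% (4.99 to 7.0) in corpus and 0.756% (0.363 to 1.39) in cauda. Thinned to 1000 UMIs per cell, the shares were 3.36% (2.66 to 4.17), 1.55% (1.07 to 2.15) and 0 of 945 cells (an upper limit of 0.390%). Here and below, thinning was applied to the rule alone, and lineage calls stayed those made with all UMIs. The order of caput and corpus turned when only cells with at least 5000 UMIs were kept, a limit set after the data were seen: 12.5% in caput, 15.8% in corpus and 2.49% in cauda. Cauda stayed the lowest at each of these depths. Its 10 dividing principal cells lay near the rule's limit, with a median of 5 of the 11 genes, 2 cells with at least 7, and no UMI of Tpx2, the spindle assembly factor that activates Aurora A, in any of them.

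Immune cells divided in all regions, at 7.10% (3.84 to 11.8) in caput, 5.80% (3.75 to 8.5) in corpus and 3.13% (1.99 to 4.66) in cauda, and at 3.83%, 2.42% and 0.870% after thinning. Fibroblast cells had low shares everywhere, with 1.88%, 2.04% and 1.13% before thinning and 0%, 1.02% and 0.514% after it. In cauda the panel held 29.0% of the dividing cells and 33.4% of all cells. Clear cells were at 1.35% in caput, 3.93% in corpus and 1.96% in cauda, and basal cells at 2.34% and 5.37% in caput and corpus. Endothelial cells were at 5.40%, 7.59% and 9.52%, the last from 2 of 21 cells.

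**Figure D2:**
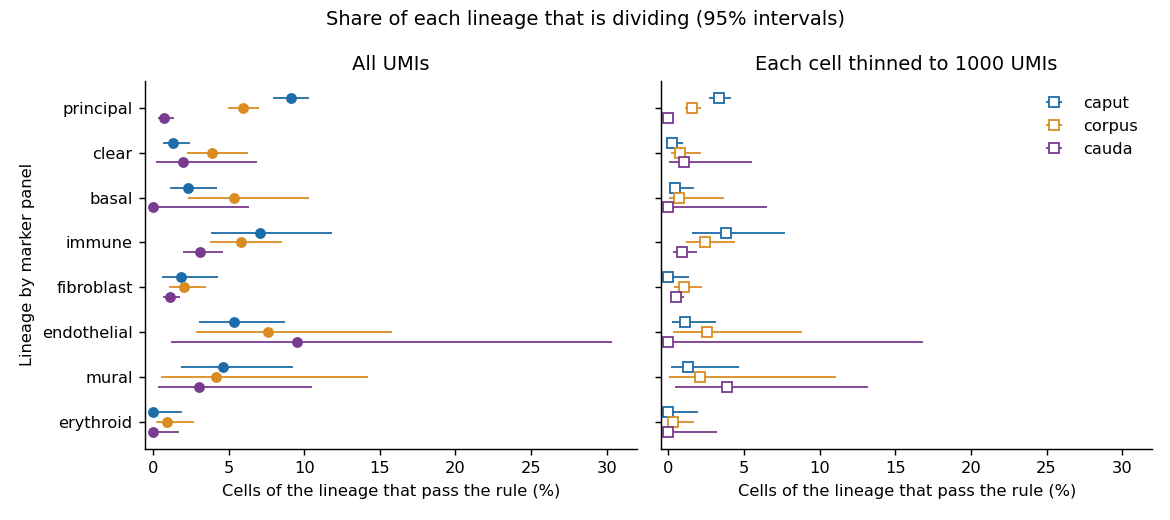
Share of the cells of each lineage (%) that passed the rule, with all UMIs on the left and after thinning each cell to 1000 UMIs on the right, with exact 95% binomial intervals. Principal cells lie at 9.11% in caput, 5.94% in corpus and 0.756% in cauda with all UMIs, and at 3.36%, 1.55% and 0% after thinning. Lineage calls on both sides were made with all UMIs.

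In caput, divisions were more frequent in principal cells of the distal kind. Cells whose leading panel was that of corpus or cauda principal cells were dividing in 18 of 79 (22.8%, 14.1 to 33.6) and 34 of 133 cases (25.6%, 18.4 to 33.8), while cells led by the caput panel were dividing in 161 of 2127 (7.57%, 6.48 to 8.78). Median depths were close, at 8349, 7590 and 7206 UMIs, and after thinning the shares were 6.41%, 11.3% and 2.74%. The panel calls, like the split by gene pairs that follows, were made with all UMIs and not redone on thinned counts. The part of depth in these groupings was therefore not tested. A split by pairs of genes known to mark successive segments, chosen after the data were seen, put the most distal pair highest too. The share was 5.19% (3.60 to 7.21) of 636 cells led by Defb47 and Defb18, 8.64% (7.13 to 10.3) of 1239 led by Cst12 and Adam28, and 15.7% (12.5 to 19.4) of 464 led by Lcn5 and Rnase13, and 1.26%, 3.07% and 7.06% after thinning.

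The secretory genes of caput principal cells were at moderately lower levels in the dividing cells. Apart from Lcn5, all 9 genes of the caput panel had lower levels than in other principal cells, at ratios of 0.58 to 0.82: Gpx5 was at 29092 CPM in dividing and 43173 CPM in other cells (ratio 0.67), Spag11b, a defensin-like sperm-binding protein, at 14132 and 21574 CPM (0.66), and Rnase10, a secreted protein of the ribonuclease A family, at 2221 and 3856 CPM (0.58). Defb47, a beta-defensin, was at 2147 and 7130 CPM, a ratio of 0.30 (0.294 to 0.308) and 1 of the 5 lowest in these cells. Over all genes with at least 20 UMIs outside the rule, 0.708% were at least 2-fold lower and 6.92% at least 2-fold higher in dividing than in other caput principal cells.

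Lcn5 and most measured genes of the corpus and cauda panels stood the other way. Of 17 genes in those panels 8 had at least 20 UMIs, at ratios of 0.97 to 4.71 with a median of 1.83, and 2 were at least 2-fold higher. Wfdc15b, of the WAP family, was at 632 CPM in dividing and 619 CPM in other cells (1.02), and Serpine2, a serpin, at 10.98 and 11.3 CPM (0.97). The retinoid-carrying lipocalin Lcn5 was at 5096 CPM in dividing and 2271 CPM in other caput principal cells (ratio 2.24), the protease inhibitor Spint4 at 345 and 73.2 CPM (4.71), the serpin Serpina1f at 867 and 305 CPM (2.84) and Spink8, a Kazal-type inhibitor, at 6645 and 3547 CPM (1.87).

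Within a segment pair most of these differences were smaller, except for several genes of the caput panel in the cells led by Lcn5 and Rnase13. Lcn5 had a ratio of 0.77, 0.86 and 1.20 in dividing against other cells led by Defb47 and Defb18, by Cst12 and Adam28, and by Lcn5 and Rnase13, and Spink8 had 1.24, 0.84 and 1.22. Gpx5 had 0.94, 0.81 and 0.50 in the same order, Spag11b 1.05, 0.78 and 0.45, and Rnase10 0.60, 0.68 and 0.54. In the last group Gpx5, Spag11b and Rnase10 had lower ratios than over all caput principal cells, as did Lcn8 (0.64) and Lcn9 (0.54). Gpx5, Lcn8, Lcn9, Rnase10 and Defb47 (0.52, 0.66 and 0.54) were below other cells in all 3 groups. Spint4 was above 2-fold in the last group alone (2.33). The pairs share genes with these lists (Lcn5 and Defb47), so those values partly follow from how the cells were grouped.

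**Figure D3:**
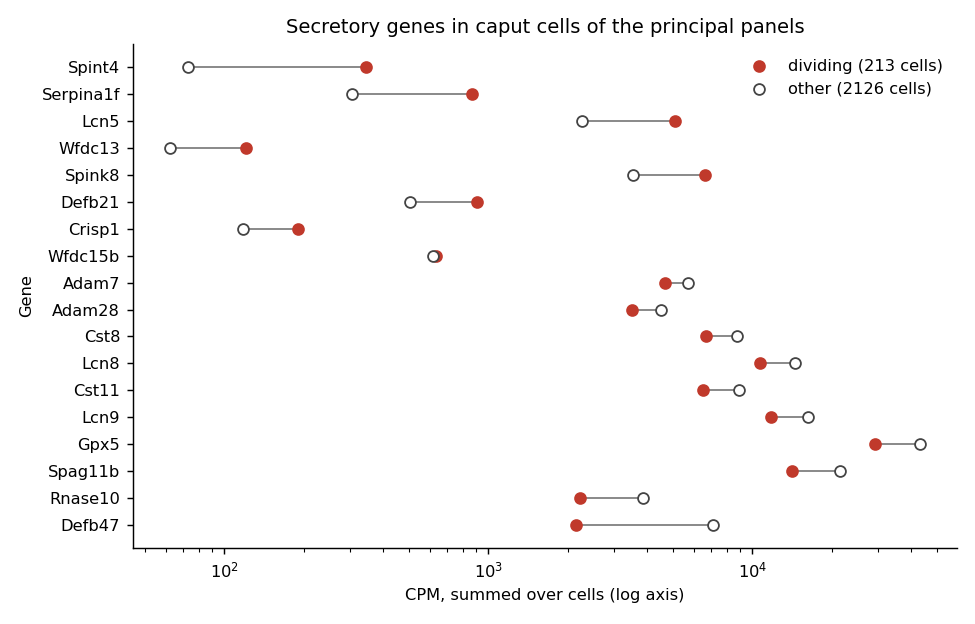
Level of secretory genes in caput cells of the principal panels (CPM of summed UMIs, log axis), with filled points for 213 dividing and open points for 2126 other cells. Spint4, Serpina1f and Lcn5 lie higher in dividing cells, and Defb47, Rnase10, Spag11b and Gpx5 lie lower.

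In corpus most secretory genes were close between dividing and other principal cells. Both sets were called principal because genes of these panels exceeded their library means, so cells without that profile could not enter the comparison. Of 15 genes of the corpus and cauda panels with at least 20 UMIs, none was at least 2-fold higher or lower, and the median ratio was 0.99 (lowest 0.52, highest 1.21). Over all genes with at least 20 UMIs outside the rule, 1.48% were at least 2-fold lower and 6.26% at least 2-fold higher. Spink8 was at 21425 CPM in dividing and 21287 CPM in other principal cells (ratio 1.01), Crisp1, a cysteine-rich protein that binds sperm, at 11324 and 11908 CPM (0.95), Wfdc13, of the WAP protease inhibitor family, at 7941 and 7414 CPM (1.07), and Defb22, a beta-defensin that coats sperm, at 3009 and 2490 CPM (1.21). Spint4 was lower, at 1501 and 2901 CPM (0.52, 0.496 to 0.540), whereas in caput the same gene was higher in dividing cells. Pnmt, which makes adrenaline from noradrenaline, was at 28.4 and 54.1 CPM (0.52, 0.376 to 0.712) and Ltf, lactoferrin, at 308 and 421 CPM (0.73). The 5 lowest were Wfdc17, Tppp2, Ccl6, Gm21738 and Rgs1, each with 6 or fewer UMIs in the 132 dividing cells. Wfdc17, for one, was at 0.692 CPM in dividing and 20.5 CPM in other cells.

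Among immune cells, most measured genes of the macrophage panel were lower in dividing than in other cells. In corpus 7 of its 10 genes had at least 20 UMIs, at ratios of 0.26 to 0.99 with a median of 0.59, and 2 were at least 2-fold lower. In cauda 9 had, at ratios of 0.27 to 1.47 with a median of 0.69, and 1 was at least 2-fold lower. None of them was at least 2-fold higher in either region. Over all genes with at least 20 UMIs outside the rule, 8.75% in corpus and 5.98% in cauda were at least 2-fold lower, and 11.7% and 11.4% at least 2-fold higher. C1qa, another chain of C1q, was at 715 CPM in dividing and 719.6 CPM in other cells of corpus (0.99), and Cx3cr1, a chemokine receptor, at 146 and 99.3 CPM in cauda (1.47, 0.896 to 2.27). The chemokine gene Ccl8 was at 101 CPM in dividing and 2231 CPM in other immune cells of corpus (ratio 0.045) and at 459 and 4174 CPM in cauda (0.11), and it was among the 5 lowest genes of both regions. C1qc, a chain of the complement protein C1q, was at 944 and 1596 CPM in corpus (0.59) and at 1245 and 2404 CPM in cauda (0.52), and Csf1r, the receptor for macrophage growth factor, at 82.5 and 273 CPM (0.30) and at 335 and 511 CPM (0.66).

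Genes of dendritic cells and monocytes were more mixed, and few were measured. In corpus 3 of the 10 panel genes had at least 20 UMIs, at ratios of 1.12 to 3.01, and 2 were at least 2-fold higher. In cauda 2 had, at ratios of 1.23 and 1.56, and none was past 2-fold. Plac8 was at 559 CPM in dividing and 186 CPM in other immune cells of corpus (3.01). In cauda Plac8 was at 72.8 and 101 CPM (0.72, from 10 UMIs). Irf8, which directs dendritic and monocyte fate, was at 413 CPM in dividing and 151 CPM in other immune cells of corpus (2.73, 1.99 to 3.65) and at 284 and 183 CPM in cauda (1.56, 1.11 to 2.13). Xcr1, a receptor of type 1 dendritic cells, was at 91.7 and 16.8 CPM in corpus (5.45, from 10 UMIs) and at 58.3 and 19.0 CPM in cauda (3.06, from 8 UMIs). Ly6c2, of inflammatory monocytes, had 0 UMIs in dividing immune cells of corpus and 1 UMI in those of cauda, against 105 and 70.9 CPM in other immune cells. Xcr1 and Ly6c2 were under 20 UMIs, observed and expected, in both regions. By panel, 8 of 50 monocyte or dendritic cells in corpus were dividing (16.0%, 7.17 to 29.1) and 5 of 55 in cauda (9.09%, 3.02 to 19.95), against 11 of 304 (3.62%) and 16 of 626 (2.56%) macrophages. After thinning the monocyte or dendritic shares were 8.0% and 0%, and those of macrophages 0.987% and 0.855%.

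Outside the 11 rule genes, the genes that stood out in dividing cells were compared with the UMIs expected if each cell had the mean of the other cells of its own lineage and library. With at least 20 UMIs observed or expected, 8.69% of genes in caput, 7.46% in corpus and 8.64% in cauda were at least 2-fold higher in dividing cells, and 1.93%, 2.12% and 2.13% were at least 2-fold lower. The median gene lay 0.14, 0.18 and 0.14 above zero on the log2 scale. Of 3233 genes with at least 20 UMIs observed in the dividing cells of each region, 159 were at least 2-fold higher in all 3 regions. Of 2916 genes with at least 20 UMIs expected in each region, 6 were at least 2-fold lower in all 3. The first limit admits some genes only through the dividing cells, where they are high, so the 2 counts cannot be set against each other.

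The genes with the largest ratio in the region where it was smallest were nearly all of spindle, centromere and cytokinesis. Depdc1a led, at 37.6 CPM in dividing cells and 0.460 CPM expected in caput (ratio 81.7, 69.4 to 95.5), 37.4 and 0.558 CPM in corpus (67.0, 53.3 to 83.2), and 77.7 and 0.0765 CPM in cauda. In cauda under 1 UMI was expected for 13 of the 20 genes, Ckap2, Cep55, Ccnb1 and Ccna2 among them, so the sizes of their cauda ratios have little meaning. Ckap2, a spindle microtubule protein, followed with ratios of 73.9, 51.1 and 90.4 in caput, corpus and cauda. Cep55, which acts at the abscission site, had 63.0, 47.7 and 94.0. Ccnb1, cyclin B1, had 51.4, 46.4 and 114, at 144, 144 and 203 CPM in dividing cells and 2.80, 3.10 and 1.78 CPM expected. Ccna2, cyclin A2 of S phase and G2, had 37.2, 43.9 and 109.

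The rest of these 20 genes were the motors Kif4, Kif11, Kif15 and Kifc1, the kinetochore genes Casc5 and Nuf2, the condensin subunit gene Ncapg, and Anln, Aspm, Nusap1, Cdca3, Ckap2l, Prr11, Dlgap5 and Cdkn3. Their ratios were between 27.5 and 135 over the 3 regions. These genes are known to be expressed together with the rule genes, so they are no independent sign of division.

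Gene lists of the cell cycle outside the rule were mostly higher. A list gene was counted as measured with at least 20 UMIs observed or expected. A gene with few expected UMIs could enter only through the dividing cells, and was then past 2-fold already. For each cycle list, above all in cauda, the counts therefore describe the members and are no independent sign of division. Without that limit, all 44 mitosis genes summed to 12.7, 13.2 and 21.7 times the expected UMIs. Of the mitosis list, 42 of 43 measured genes were at least 2-fold higher in caput, 41 of 42 in corpus and 34 of 35 in cauda, with median log2 ratios of 4.87, 4.71 and 5.53. The exception in each region was Pttg1, securin, which holds separase back until anaphase, with ratios of 1.20, 1.17 and 0.71. The list of kinetochore, cohesin and condensin genes was at least 2-fold higher in 24 of 24, 24 of 24 and 20 of 20 genes. Smc4, a condensin subunit, had the most UMIs among them, at 866 CPM in dividing and 121 CPM expected in caput (7.19, 6.95 to 7.42).

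S phase genes were higher by less. Of these, 30 of 35 were at least 2-fold higher in caput, 28 of 32 in corpus and 17 of 17 in cauda, with median log2 ratios of 1.599, 1.75 and 2.73. Tyms, thymidylate synthase, had ratios of 5.54, 8.87 and 11.5, and Pcna, the sliding clamp of DNA polymerase, had 1.73, 2.22 and 2.63. Histone genes of replication were at least 2-fold higher in 8 of 11, 9 of 11 and 6 of 6 genes. Hist1h1b, a linker histone gene, was at 57 CPM in dividing and 3.93 CPM expected in caput (14.5), at 117 and 4.11 CPM in corpus (28.4), and at 244 and 3.97 CPM in cauda (61.4). DNA repair genes followed in 12 of 14, 10 of 13 and 2 of 3 genes.

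Chromatin and nuclear protein genes were at least 2-fold higher in 18 of 25, 21 of 25 and 21 of 24 genes, with Hmgb2, a DNA-bending protein, at ratios of 7.86, 8.22 and 10.7. Most regulators of entry into the cycle were within 2-fold of their expected level. In the list of D cyclins, CDKs and their inhibitors, 2 of 20, 4 of 18 and 3 of 12 genes were at least 2-fold higher, and none lower. Over all genes 8.69%, 7.46% and 8.64% were at least 2-fold higher, so the list's part was near that share in caput and larger in corpus and cauda. Its median log2 ratios were 0.34, 0.29 and 0.04, against 0.14, 0.18 and 0.14 over all genes. Ccnd1, cyclin D1, which drives entry from G1, had ratios of 0.68, 0.75 and 0.63, Ccnd2 had 0.54, 0.64 and 0.68, and Btg2, an antiproliferative gene, had 0.69, 0.62 and 0.58. The exceptions on the high side in all regions were the INK4 inhibitors Cdkn2c, at 2.35, 2.57 and 4.76, and Cdkn2d, at 3.94, 4.87 and 3.98. Among transcription factors of the cycle 2 of 9, 4 of 8 and 1 of 2 measured genes were at least 2-fold higher, and none was 2-fold lower. Foxm1 was high where it could be measured, with ratios of 17.8 in caput and 17.6 in corpus. Lin9 was at 3.63 and 3.34 in the same regions, and Myc was at 0.79, 0.70 and 0.50.

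**Figure D4:**
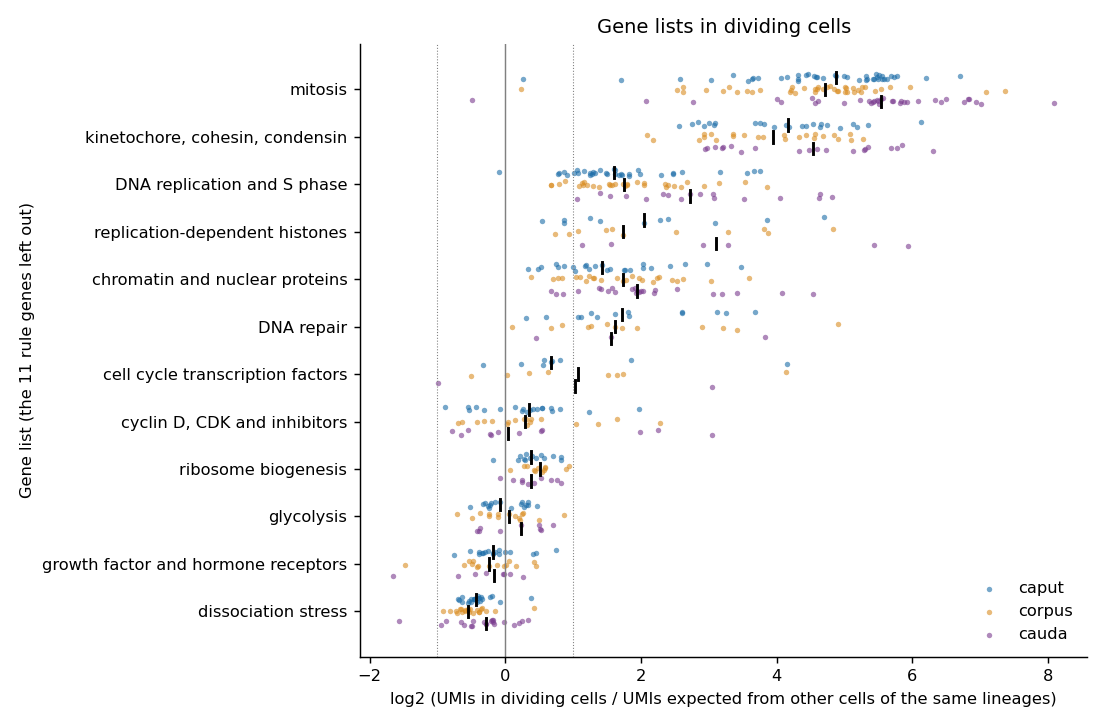
Log2 ratio of UMIs in dividing cells to UMIs expected from the other cells of the same lineages, for each gene (points) of 12 lists with at least 20 UMIs observed or expected, by region, with medians as black bars and 2-fold limits as dotted lines. Mitosis genes have medians of 4.87 in caput, 4.71 in corpus and 5.53 in cauda, and receptors and dissociation stress genes lie near or below zero.

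Few genes were lower in all regions. The 6 below 0.5 everywhere were the smooth muscle myosin gene Myh11, the collagen gene Col6a5, the haemoglobin genes Hbb-bs and Hba-a2, and Wfdc1 and Wfdc17. Hbb-bs was at 719 CPM in dividing and 1535 CPM expected in caput (0.47, 0.452 to 0.485), with ratios of 0.44 in corpus and 0.43 in cauda. The dividing cells were the deeper ones in every region, and the part of depth and of free RNA in these ratios was not tested. Mitochondrially encoded genes together were at 0.81, 0.63 and 0.61 of the expected sum. The median mitochondrial share was 3.92% in dividing and 5.6% in other caput cells, 8.63% and 13.4% in corpus, and 4.61% and 10.7% in cauda.

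The 2 phases were set side by side in each member with 39 S phase and 44 mitosis genes outside the rule. The rule leans to mitosis, so the balance of the lists is a description. Mitosis genes summed to 3463 CPM and S phase genes to 1175 CPM in dividing cells of caput, to 4021 and 1577 CPM in corpus, and to 4905 and 2039 CPM in cauda. The S phase sum exceeded the mitosis sum in 38 of 300 (12.7%), 37 of 230 (16.1%) and 13 of 62 cells (21%).

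Among lineages with at least 20 dividing cells, principal cells stood furthest on the mitosis side and cauda immune cells nearest to S phase. The ratio of the mitosis to the S phase sum was 3.21 in caput and 3.04 in corpus principal cells, and 1.26 in immune cells of cauda, where S phase exceeded mitosis in 10 of 23 cells (43.5%, 23.2 to 65.5) against 21 of 213 principal cells of caput (9.86%, 6.21 to 14.7). Immune cells of corpus had a ratio of 2.33, with 4 of 24 cells on the S phase side. Smaller groups went past both: the 10 clear cells of caput had 4.05, the 18 fibroblast cells of cauda 3.70, and the 10 basal cells of caput 1.19, with 5 of 10 on the S phase side.

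**Figure D5:**
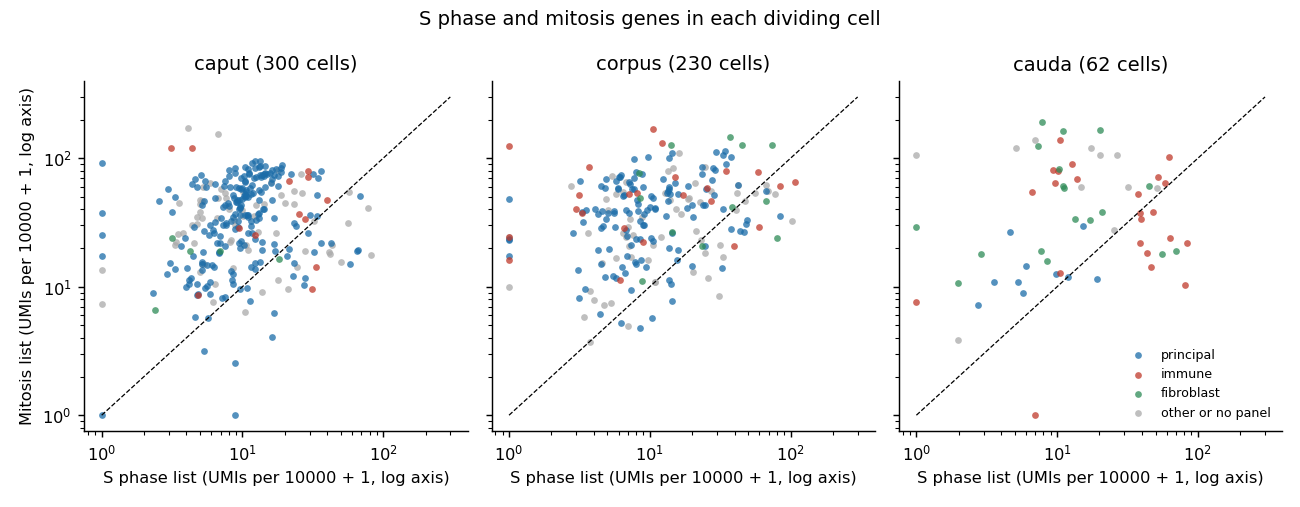
Each point is a dividing cell, placed by its UMIs per 10000 of the S phase list and of the mitosis list (1 added, log axes), with the dashed line at equal sums, for caput, corpus and cauda. Above the line lie most cells of all regions, and below it lie 10 of the 23 immune cells of cauda.

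A few members carried RNA of germ cells in meiosis. The meiotic panel (Dazl, Ddx4, Sycp3, Sycp1, Stra8 and Hormad1) led in 8 members, 6 in caput and 2 in corpus, and in 0 of the 13963 cells outside the rule. All 8 had UMIs of Ddx4, the germ cell helicase, Sycp1, of the synaptonemal complex that pairs chromosomes in meiosis, and Hormad1, of the meiotic chromosome axis. Hormad1 had 58 UMIs in these 8 cells, 1 in the other 584 members and 8 in all cells outside the rule. Ldhc, the lactate dehydrogenase of germ cells, was at 7202 CPM in the 8 cells, 51.0 CPM in the other members and 7.10 CPM in the cells outside the rule. Stra8, which starts meiosis, had no UMI.

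Of the rule genes, at least 4 of which had to be present for entry, Ccnb2 and Cenpf were seen in 8 of 8, Top2a in 7, Prc1 and Birc5 in 6, and Mki67 and Cenpa in 0 of 8, although Mki67 was seen in 485 and Cenpa in 447 of the other 584 members. The cells had 6377 to 23346 UMIs and 4 to 9 of the rule genes. Clustering without cycle genes put these 8 among 23 cells of a cluster led by the same panel. It held 14 dividing cells, the 8 included (10 in caput and 4 in corpus), with Ccnb2 and Cenpf in 14 of 14 and Mki67 and Cenpa in 0 of 14. Gpx5 was seen in all 10 of the caput cells and in 0 of the 4 corpus cells, beside 300 of 300 of all dividing cells of caput and 12 of 230 of corpus. Leaving out the 8 cells moved no share of dividing cells out of its interval. Whether such cells lay in the duct or came along with the tissue was not tested.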

How the data were processed

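RNA of single epididymal cells was counted by the authors, who deposited 1 matrix of UMI counts for 24335 gene symbols and 14845 cells, with the region in each column name. Per the submitters' processing notes, STAR 2.7.3a, UMI-tools and the build GRCm38.p6 were used. Total UMIs were 41500792 (caput), 21495211 (corpus) and 18341476 (cauda), so counting error is small for summed UMIs and large for few cells. Cells with under 200 detected genes (22, 128 and 140) were left out, and none of them met the rule. There was no ceiling on mitochondrial UMIs and no doublet removal.

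Members, panels (175 genes, 169 measured) and 15 gene lists (323 genes, 319 measured) were chosen with earlier results of these data known. Expected UMIs were the CPM of the other cells of the same lineage and library times the UMIs of the dividing cells, so the intervals of ratios cover the counting error of the dividing cells. A ratio was called past the fold at 2 with at least 20 UMIs, and 0 counts were set to 3. Named genes were the rule and lineage genes, the 20 with the largest lowest ratio and the 10 with the smallest highest ratio over the regions (clone names left out), the 5 highest and lowest within each lineage and region of at least 20 dividing cells, and the 5 list members with most UMIs. Genes outside this rule, such as Pttg1, Foxm1, Cdkn2c, Cdkn2d and those of the meiotic cells outside their panel, were chosen after their values were seen. A few list and panel genes are not reported here. The ratio calculation was tested on simulated data. Python 3.11.15, numpy 2.4.6, scipy 1.17.1, pandas 2.3.3, scanpy 1.11.5, igraph 0.11.9 and matplotlib 3.10.9 were used.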

Additional observations from a re-analysis of the deposited data

How the results depend on the processing

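No paired analysis was possible because each region has 1 library and no replicates. Values below run caput, corpus, cauda. The share of dividing cells was 7.15%, 6.13% and 1.67% with at least 3 of the 11 genes, 4.10% in corpus with at least 5, 5.37% in caput with a sum of at least 10 per 10000, 1.73% in cauda with 500 detected genes, 6.27%, 6.11% and 1.72% without cells over 20% mitochondrial, 4.41%, 3.44% and 0.920% with the second set of mitotic genes, and 2.09%, 1.42% and 0.487% after thinning. The principal share of dividing cells was 58.7% in caput with at least 4 panel genes high, 55.0% in caput and 64.3% in corpus from clusters (where 58 caput members sat in a cluster without a name), 78.2% in caput without cells of 2 lineages, and 76.4% in caput and 6.25% in cauda with at least 7 rule genes, the last an alternative chosen after seeing the data. Cauda immune cells were 53.2% of members by clusters, and caput fibroblast cells 0.389% without cells of 2 lineages. Thinned, with lineage calls kept from all UMIs, the dividing share was 3.36%, 1.55% and 0% in principal, 3.83%, 2.42% and 0.870% in immune, and 0%, 1.02% and 0.514% in fibroblast cells. In cells with at least 5000 UMIs, also chosen after seeing the data, it was 12.5%, 15.8% and 2.49% in principal, 12.8%, 13.5% and 7.21% in immune, and 6.10%, 8.40% and 2.29% in fibroblast cells. Without matching of lineage, genes at least 2-fold lower were 488 in place of 213 in caput and 362 in place of 187 in corpus. No direction reversed in these alternatives among ratios past 2-fold, and of the ratios of named genes 14 of 303 crossed the 2-fold limit without matching, 8 with means over cells and 4 with mitochondrial and haemoglobin genes left out of the scaling. Alternatives also added after seeing the data were the segment pairs of caput and leaving out the 8 cells of the meiotic panel, which kept all 3 regional shares within their intervals. The causes were not tested. Depth per cell limits all shares, and few cells limit those of clear, basal, mural and endothelial cells.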

Other observations

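Several lists outside the cycle were close to the other cells of the same lineages, where the share of genes at least 2-fold higher was 8.69% in caput, 7.46% in corpus and 8.64% in cauda. Ribosome biogenesis genes were at least 2-fold higher in 0 of 14, 0 of 12 and 0 of 10 genes in caput, corpus and cauda, yet their medians lay at 0.38, 0.52 and 0.39 on the log2 scale, against 0.14, 0.18 and 0.14 over all genes. Nop58, a protein of small nucleolar ribonucleoproteins, had ratios of 1.76, 1.85 and 1.601. Ribosomal protein genes together were at 0.996, 0.937 and 1.02 of the expected sum. Glycolysis genes had medians of -0.08, 0.06 and 0.24, with Aldoa, an aldolase, at 0.70, 0.61 and 0.76 and Ldha, a lactate dehydrogenase, at 1.19, 1.15 and 1.63.

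Receptor genes showed no member at least 2-fold higher among 18, 15 and 8 measured, and 0, 1 and 1 at least 2-fold lower. The lower ones were Csf1r in corpus (0.36, 0.196 to 0.601) and Igf1r, the receptor for insulin-like growth factor, in cauda (0.32, 0.128 to 0.655), from 7 UMIs. Epithelial and junction genes had no member past 2-fold. Epcam, an adhesion molecule of epithelium, was at 725 CPM in dividing cells and 454 CPM expected in caput (1.597, 1.54 to 1.65) and at 704 and 398 CPM in corpus (1.77, 1.68 to 1.86). In the apoptosis list 16, 12 and 6 genes were measured, with median log2 ratios of 0.10, 0.22 and 0.46. At least 2-fold lower was Bcl2 in corpus, an inhibitor of apoptosis, at 0.46.

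Genes induced by tissue digestion had no member at least 2-fold higher, and 1 in cauda (Hspb1, 0.34) at least 2-fold lower. The list summed to 0.78, 0.76 and 0.83 of the expected value, with Fos at 0.73, 0.68 and 0.88 and Egr1 at 0.71, 0.76 and 0.63. Hsp90aa1, a cytosolic chaperone of the same list, was at 1.30, 1.35 and 1.26. In the pan-immune list 11 genes were measured in each region, of which 1 in caput was at least 2-fold higher, 1 in caput at least 2-fold lower, and none in corpus or cauda. The lower one was Tyrobp, a signalling adaptor, at 20.6 CPM in dividing cells and 42.0 CPM expected (0.49), with 0.56 in corpus and 0.88 in cauda. The higher one, Cd52, which the epididymal epithelium also secretes onto sperm, was at 831 CPM in dividing cells and 352 CPM expected in caput (2.36), and at 0.97 and 0.94 of the expected level in corpus and cauda. Within the caput cells led by Lcn5 and Rnase13, Cd52 was at 2040 CPM in 73 dividing and 1155 CPM in 391 other cells (1.77).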
